A study of Homo sapiens with 4 samples.

Results

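The mitochondrial carrier genes were followed in DLD-1, a widely used line from a human colorectal adenocarcinoma, in cells given an HMGA2 plasmid and in cells given its vector. HMGA2 is a chromatin protein that binds AT-rich DNA. Members were chosen by the platform's gene symbol, namely SLC25A followed by a number, the uncoupling protein genes UCP1, UCP2 and UCP3, and the pyruvate carrier genes MPC1 and MPC2. This gave 50 genes of the 18336 genes on the array, read by 63 probes. Pseudogene and antisense symbols of the family were not counted.

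Both lines were stable clones of untreated cells selected with the antibiotic G418 at 1 mg/mL and kept in 0.5 mg/mL. The HMGA2 line carried the tGFP-tagged pCMV6-HMGA2 plasmid and the vector line pCMV6-AC-GFP, so HMGA2 was driven by a plasmid and not by its own locus. How many clones make up each line is not stated in the labels. The medium held 10% serum, 1 mM sodium pyruvate and 1% glutamine in both. There were 2 single-colour arrays per line. The labels do not say whether the RNA of replicate arrays was grown separately, so each p-value reflects only the spread of the arrays in hand, and that spread may be technical.

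Mitochondrial carriers are proteins of the inner mitochondrial membrane built from a repeated pair of membrane helices. Each exchanges or imports a defined set of solutes, such as ADP against ATP, phosphate, citrate, amino acids, iron or coenzymes, and so links the cytosol to the enzymes of the matrix. The uncoupling proteins belong to the same family by sequence, while MPC1 and MPC2 are small unrelated proteins that together form the pyruvate carrier.

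The labels of the 2 groups were not borne out by the HMGA2 probes. The brighter HMGA2 probe read 5576 and 5270 on the vector arrays and 3917 and 4369 on the arrays labelled HMGA2, and the other read 2728 and 3493 against 4596 and 3466. The position of either probe relative to the plasmid's insert is not known here. The groups are therefore called the vector arrays and the arrays labelled HMGA2, and each direction rests on those labels. Of 11 colorectal epithelial marker genes measured, 10 lay above the limit for dim genes, and CEACAM5 lay below it. Of these 10, 4 were called higher (EPCAM, CDH1, VIL1 and ELF3) and 3 lower, namely KRT20 (log2 -2.74), KRT8 (-2.43) and CDX2 (-0.62). Of 15 markers of blood, endothelial, stromal, liver and muscle cells, 8 lay above it. All 15 together had a summed intensity of 9075 and 10138 on the vector arrays and 9347 and 7995 on the arrays labelled HMGA2. Of the 8, CD68 was called higher, and COL1A1 and MYH2 lower. Their part in the results on the carriers was not tested.

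The promoters below are shown for 2 contrasts to which the array values are given later: the aspartate/glutamate carriers SLC25A12 and SLC25A13, close relatives whose differences between the groups lay apart, and SLC25A43 and SLC25A5, neighbours on the X chromosome. Each is the 250 bases before the gene's start, 5′ to 3′, from RefSeq on GRCh38.p14: chr2:171894245-171894494 and chr7:96322099-96322348 on the minus strand, and chrX:119399086-119399335 and chrX:119468194-119468443 on the plus strand. Capitals mark the motifs searched for on both strands, and those found here were the GC box GGGCGG, the CCAAT box and the E-box CACGTG.
SLC25A12: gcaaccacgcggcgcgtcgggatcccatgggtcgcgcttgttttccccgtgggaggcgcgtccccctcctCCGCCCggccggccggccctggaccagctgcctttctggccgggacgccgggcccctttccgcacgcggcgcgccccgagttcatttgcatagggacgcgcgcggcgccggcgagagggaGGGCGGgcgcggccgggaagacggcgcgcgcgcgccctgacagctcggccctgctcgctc
SLC25A13: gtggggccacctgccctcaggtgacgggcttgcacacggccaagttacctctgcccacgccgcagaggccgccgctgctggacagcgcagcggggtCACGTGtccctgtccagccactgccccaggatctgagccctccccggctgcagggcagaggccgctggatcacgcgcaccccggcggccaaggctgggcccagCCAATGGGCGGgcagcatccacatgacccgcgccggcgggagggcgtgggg
SLC25A43: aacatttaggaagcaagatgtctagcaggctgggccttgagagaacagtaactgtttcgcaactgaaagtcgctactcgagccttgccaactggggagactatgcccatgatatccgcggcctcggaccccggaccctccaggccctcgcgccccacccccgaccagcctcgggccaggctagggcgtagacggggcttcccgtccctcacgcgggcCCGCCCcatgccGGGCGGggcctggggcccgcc
SLC25A5: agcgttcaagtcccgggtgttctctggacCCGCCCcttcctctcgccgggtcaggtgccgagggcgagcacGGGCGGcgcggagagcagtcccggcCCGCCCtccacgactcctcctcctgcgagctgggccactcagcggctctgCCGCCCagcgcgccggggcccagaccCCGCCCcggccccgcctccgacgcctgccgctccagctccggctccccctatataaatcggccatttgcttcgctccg
The SLC25A13 promoter held 1 E-box, 1 CCAAT box and 1 GC box, the latter 2 abutting in a single capital run. The SLC25A12 promoter held 2 GC boxes, that of SLC25A43 held 2 and that of SLC25A5 held 5. RefSeq gave 57 promoters for 43 of the 50 members. A GC box lay in 66.7% of these and in 42.6% of all 35116 promoters, a CCAAT box in 43.9% and 32.0%, and an E-box in 12.3% and 6.3%. Also searched were the cyclic AMP response half-site TGACGT, in 8.8% of member promoters against 7.1% of all, and the nuclear receptor half-site TGACCTT, in 1.8% against 3.4%. The median GC content was 66.8% in the members' promoters and 58.0% in all, and letters in a window do not show that a factor binds there.

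Of the 50 members, 45 passed the filter on dim genes, an intensity of about 234.3 averaged over the 4 arrays on the log2 scale. The 5 left out were SLC25A2, SLC25A41, SLC25A44, SLC25A47 and UCP1. UCP1, the heat-producing uncoupling protein of brown fat, read 12 and 56 on the vector arrays and 97 and 17 on the arrays labelled HMGA2. SLC25A47, known from liver, read 141 and 180 against 273 and 233, so its groups did not overlap. It was left out of the fit of genes. A fit of single probes had a limit for dim probes of 167.2. There SLC25A47 gave a log2 difference of 0.66 (SE 0.33) as deposited and 0.67 after quantile normalization. Its mean on the vector arrays, 160.5, lay below that limit. It entered that fit through the arrays labelled HMGA2, so its values are a description. Intensities of the 50 genes on each array are plotted by role.

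**Figure D1:**
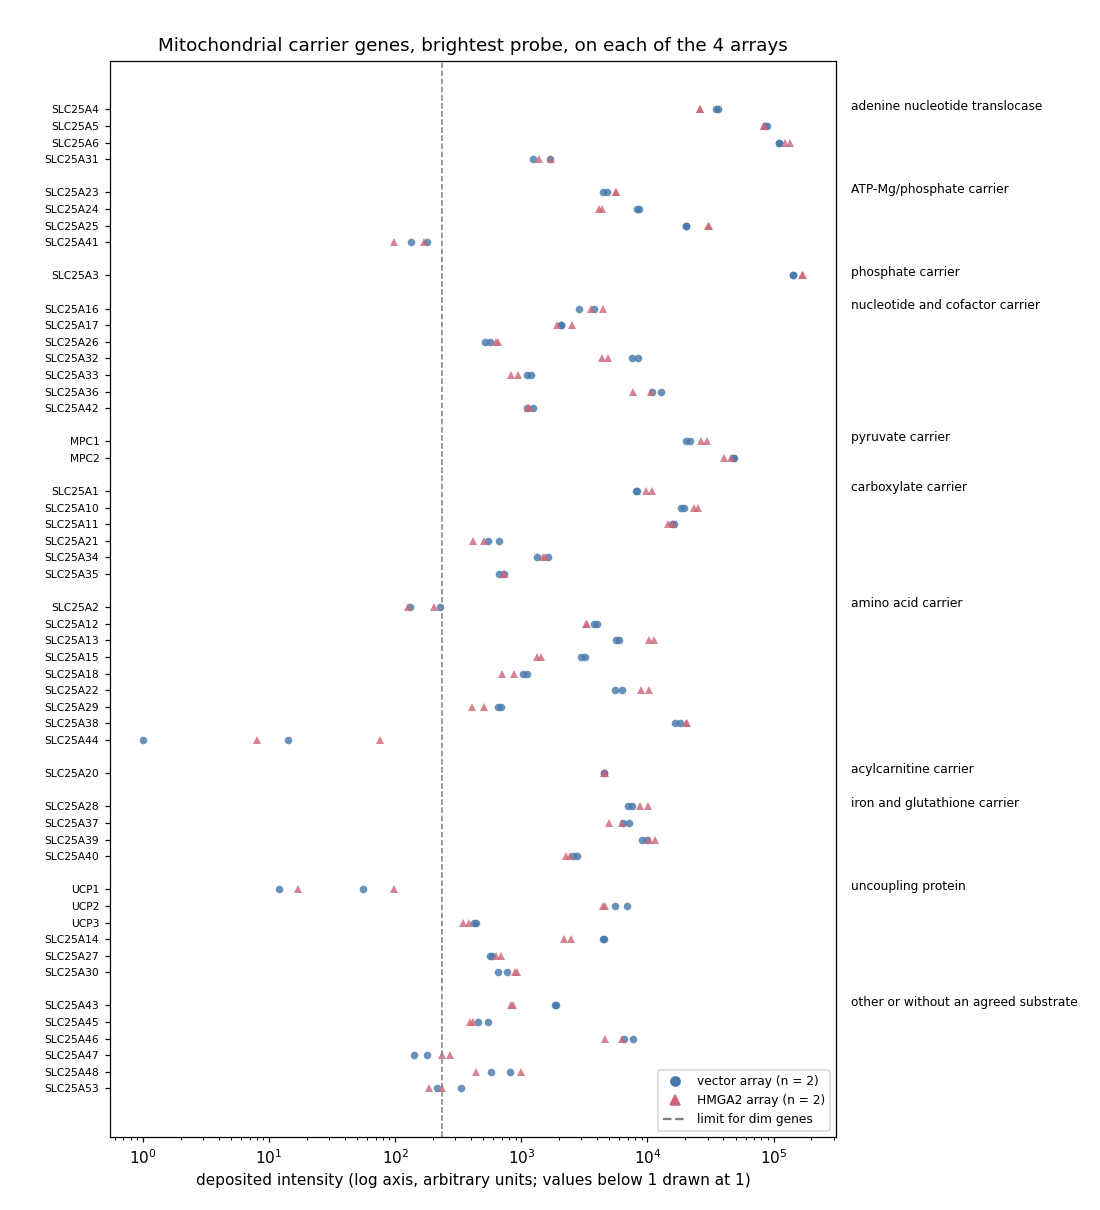
Deposited intensity (log axis, arbitrary units) of the brightest probe of each of the 50 carrier genes on 2 vector arrays (circles) and 2 arrays labelled HMGA2 (triangles), grouped by role. The dashed line is the limit for dim genes at 234.3, and SLC25A15, SLC25A43, SLC25A24 and SLC25A13 show pairs of arrays that stand clearly apart.

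Rises and falls were equally frequent among the carriers as deposited, and rises outnumbered falls after quantile normalization. In bulk RNA of this kind, less RNA in each cell and fewer cells with the transcript cannot be told apart. Of the 45 members tested with limma at an adjusted p of 0.05, 9 were higher and 9 lower on the arrays labelled HMGA2, or 40% of members against 43.6% of all 13752 genes. The background was 14.9% for higher and 28.7% for lower. After quantile normalization 16 members were higher and 6 lower, against a background of 27.8% and 22.8%, or 50.6% either way. With array medians subtracted 15 were higher and 5 lower, against 3715 and 2479 of all genes. Fewer members were called higher when vector replicate 2 or HMGA2 replicate 2 was left out. Rises also became fewer over all genes, by a smaller proportion. All 9 rises and 6 of the 9 falls were called in both versions, and none was called in opposite directions. Quantile normalization moved the median log2 difference of all genes from -0.09 to 0.08 and that of the members from -0.05 to 0.13. The members' median therefore lay close to that of the array as a whole on either scale. In both versions rises were somewhat more frequent, and falls less frequent, among members than among all genes, which was not tested. Differences of at least 0.5 log2 were called in 9 members, or 20.0%, against 29.8% of all genes. The arrays of the groups did not overlap for 35 of the 45 members, 77.8%, against 71.3% of all genes.

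**Figure D2:**
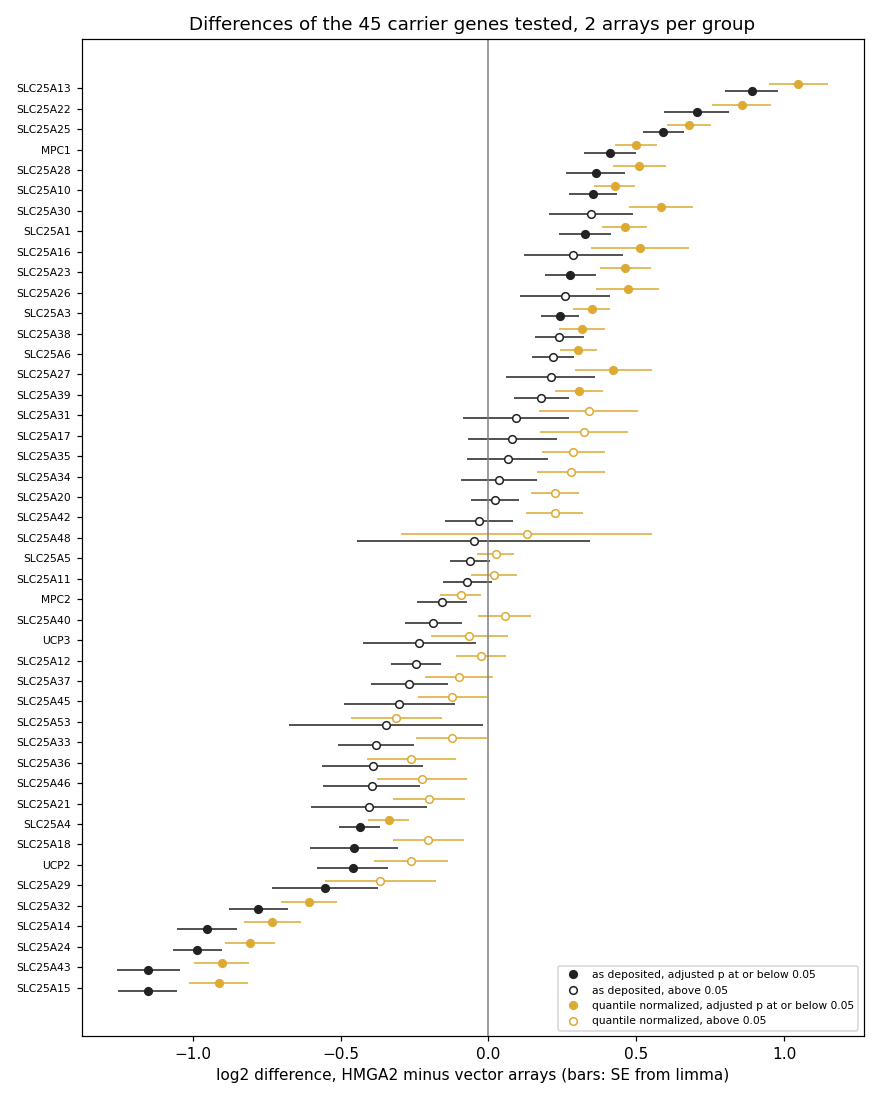
Log2 difference (arrays labelled HMGA2 minus vector arrays, 2 each, bars are limma SE) of the 45 carrier genes tested, as deposited (black) and after quantile normalization (yellow), filled where the adjusted p is at or below 0.05. Values run from -1.15 for SLC25A15 to 0.89 for SLC25A13 as deposited, and the quantile values lie to the right throughout.

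The adenine nucleotide translocases, which exchange ADP for ATP across the inner membrane, did not move together. SLC25A4, the isoform known from heart and muscle, read 35966 and 35099 on the vector arrays and 26244 and 26320 on the arrays labelled HMGA2. It fell by 0.43 on the log2 scale (SE 0.07, adjusted p = 0.00398 with limma), and by 0.34 after quantile normalization, while subtraction of array medians gave -0.21 and no call (adjusted p = 0.286). SLC25A5, the isoform of dividing cells, read 89050 and 85453 against 83553 and 83506, a log2 difference of -0.06 (95% interval -0.23 to 0.10) that did not pass and was 0.02 after quantile normalization. SLC25A6, the isoform found in most tissues, read 110806 and 111017 against 123940 and 134234. Its log2 difference of 0.22 missed the threshold as deposited (limma adjusted p = 0.0516) and passed after quantile normalization at 0.30 (adjusted p = 0.0117) and without HMGA2 replicate 1 (0.275, adjusted p = 0.0342). SLC25A31, the isoform of testis, overlapped between groups, with 1243 and 1678 against 1705 and 1393. A second SLC25A5 probe, dimmer, read 806 and 910 on the vector arrays and 174 and 165 on the arrays labelled HMGA2, or -2.34 in log2 difference. The readings on the arrays labelled HMGA2 lay below the limit for dim genes and at about the limit for single probes, so this value is a description. The mean of both SLC25A5 probes, -1.20, includes this dim probe and is likewise a description. The result of SLC25A5 therefore depends on how its probes are joined. Translocase genes have near-identical copies in the genome, and the sequences of these probes were not analysed here.

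The inner membrane phosphate carrier and the ATP-Mg/phosphate carriers, which load the matrix with phosphate and adenine nucleotides, gave calls in all 4 genes tested. Of all genes, 43.6% were called either way. SLC25A3, the phosphate carrier needed for ATP synthesis, read 143728 and 141963 on the vector arrays and 166805 and 171269 on those labelled HMGA2, a rise of 0.24 (adjusted p = 0.0246 with limma). The SLC25A3 call did not hold when either vector replicate (limma adjusted p = 0.0641 for the first and 0.0885 for the second) or HMGA2 replicate 2 (0.0673) was left out. SLC25A25, a calcium-regulated ATP-Mg/phosphate carrier, read 20105 and 20162 against 30545 and 30120. It was 1.51-fold higher (log2 0.59, SE 0.07, adjusted p = 0.00134). SLC25A24, its close relative, read 8543 and 8250 against 4350 and 4141 and was 1.98-fold lower (log2 -0.98, SE 0.08, adjusted p = 0.000419). The directions of SLC25A25 and SLC25A24 were opposite on all scalings, with quantile values of 0.68 and -0.80. SLC25A23, also an ATP-Mg/phosphate carrier, read 4462 and 4802 against 5585 and 5634, a smaller rise of 0.28 (adjusted p = 0.0411). The rise of SLC25A23 lost its call when any of the 4 arrays was left out, with adjusted p from 0.0873 to 0.273.

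Carriers of nucleotides and cofactors mostly did not pass. Of 7 tested, 1 fell and 0 rose, against 28.7% and 14.9% of all genes. After quantile normalization 1 fell and 2 rose, against 22.8% and 27.8% of all genes. SLC25A32, which serves the entry of folate and FAD, read 7540 and 8362 on the vector arrays and 4388 and 4887 on those labelled HMGA2, a 1.72-fold fall (log2 -0.78, SE 0.10, adjusted p = 0.00172 with limma). Its other probe read 1137 and 1224 against 1235 and 1177 and did not differ beyond its error (log2 0.03, SE 0.12). The fall therefore rests on 1 of its 2 probes. The pyrimidine nucleotide carriers SLC25A33 and SLC25A36 gave -0.38 and -0.39 without a call. The array labelled HMGA2 replicate 2 read 10659 for SLC25A36 and replicate 1 read 7637, so its groups were close; without HMGA2 replicate 2 the difference was -0.63, and without vector replicate 2 it was -0.50, both past the threshold. The coenzyme A carrier SLC25A42 (-0.03), the peroxisomal carrier SLC25A17 (0.08), SLC25A16 (0.29) and the S-adenosylmethionine carrier SLC25A26 (0.26) did not pass as deposited. SLC25A16 and SLC25A26 passed after quantile normalization, at 0.51 and 0.47, and SLC25A16 also without vector replicate 1, at 0.48.

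The pyruvate carrier's genes differed from each other. MPC1 read 21941 and 20305 on the vector arrays and 26601 and 29606 on the arrays labelled HMGA2, a 1.33-fold rise (log2 0.41, SE 0.09, adjusted p = 0.0121 with limma). Its second probe read 6989 and 7182 against 10330 and 11268, a rise of 0.61 (adjusted p = 0.00166 in the fit of single probes). MPC2 read 48264 and 47850 against 40505 and 45788 and did not pass (log2 -0.16, 95% interval -0.36 to 0.05). The second MPC2 probe read 2474 and 2715 against 1871 and 1988 (log2 -0.43, adjusted p = 0.0161), and after quantile normalization it did not pass (-0.20, adjusted p = 0.13). Both MPC1 probes were higher under both scalings, and neither MPC2 probe was.

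Of the carboxylate carriers, 2 of 6 tested rose and 0 fell, against 14.9% and 28.7% of all genes. SLC25A1, which exports citrate for fatty acid and sterol synthesis, read 8158 and 8259 on the vector arrays and 9760 and 10855 on those labelled HMGA2 (log2 0.33, SE 0.09, adjusted p = 0.0259 with limma). SLC25A10, the dicarboxylate carrier, read 19580 and 18537 against 23382 and 25316 (log2 0.35, SE 0.08, adjusted p = 0.0152). The groups of both genes did not overlap. SLC25A1 lost its call with vector replicate 1 left out (limma adjusted p = 0.10), with vector replicate 2 left out (0.0816) and with HMGA2 replicate 2 left out (0.0919), and SLC25A10 without vector replicate 2 (0.0864). SLC25A11, the oxoglutarate carrier of the malate-aspartate shuttle, was at -0.07 (95% interval -0.27 to 0.13), and the oxodicarboxylate carrier SLC25A21 at -0.41 without a call. SLC25A34 (0.03) and SLC25A35 (0.06), whose substrates are not settled, overlapped between groups.

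By brightest probe, the amino acid carriers held the largest rise of the family among the genes tested and, level with SLC25A43, the largest fall. With the mean of probes SLC25A5 (-1.20) and SLC25A48 (0.93) lay beyond them, each through a probe that was dim in 1 group. SLC25A13, an aspartate/glutamate carrier of the malate-aspartate shuttle and the urea cycle, read 6005 and 5590 on the vector arrays and 11213 and 10263 on the arrays labelled HMGA2. It was 1.85-fold higher (log2 0.89, SE 0.09, adjusted p = 0.000762 with limma). SLC25A12, its paralogue with the same exchange, read 3772 and 3980 against 3241 and 3297, a log2 difference of -0.24 that did not pass (adjusted p = 0.0621) and was -0.03 after quantile normalization. Their promoters are those printed above. SLC25A15, which carries ornithine and citrulline for the urea cycle, read 3189 and 2963 against 1333 and 1438 and was 2.22-fold lower (log2 -1.15, SE 0.10, adjusted p = 0.000462). SLC25A22, a glutamate carrier, read 6315 and 5531 against 8958 and 10334, a 1.63-fold rise (log2 0.70, SE 0.11, adjusted p = 0.00377).

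Further amino acid carriers lay near the threshold. SLC25A18, the second glutamate carrier, read 1040 and 1111 against 871 and 707 (log2 -0.45, limma adjusted p = 0.0497), and SLC25A29, a carrier of basic amino acids, read 648 and 689 against 407 and 510 (log2 -0.55, limma adjusted p = 0.0494). Neither passed after quantile normalization, at -0.20 and -0.37 (limma adjusted p = 0.207 and 0.156). Leaving out either vector replicate (limma adjusted p = 0.079 and 0.138) or HMGA2 replicate 1 (0.216) ended the call of SLC25A29. Leaving out vector replicate 2 or HMGA2 replicate 2 ended that of SLC25A18 (0.0982 and 0.233). SLC25A38, a glycine carrier that serves haem synthesis, read 18252 and 16456 against 20364 and 20556 and passed after quantile normalization (0.32) but not as deposited (0.24). SLC25A20, which moves acylcarnitines for fatty acid oxidation, was at 0.02 (95% interval -0.18 to 0.22).

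Among carriers of iron and glutathione, 1 of 4 rose and 0 fell, against 14.9% and 28.7% of all genes. SLC25A28, the iron importer mitoferrin-2, read 7605 and 7020 on the vector arrays and 8776 and 10052 on those labelled HMGA2 (log2 0.36, SE 0.10, adjusted p = 0.0289 with limma), and its other probe was at 0.19 without a call. The SLC25A28 call was lost without vector replicate 2 or HMGA2 replicate 2 (limma adjusted p = 0.119 and 0.0954). SLC25A37, mitoferrin-1, read 7124 and 6371 against 4997 and 6263 and did not pass (log2 -0.27), but passed without HMGA2 replicate 2 (-0.43). The glutathione carriers SLC25A39 and SLC25A40 gave 0.18 and -0.19 without a call, and SLC25A39 passed after quantile normalization at 0.31.

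Of 5 uncoupling proteins and their relatives tested, 0 rose and 2 fell, against 14.9% and 28.7% of all genes. After quantile normalization 2 rose and 1 fell, against 27.8% and 22.8% of all genes. SLC25A14, a relative of the uncoupling proteins known from brain, read 4422 and 4525 on the vector arrays and 2163 and 2472 on the arrays labelled HMGA2, a 1.93-fold fall (log2 -0.95, SE 0.10, adjusted p = 0.000884 with limma). UCP2, found in many tissues, read 5573 and 6912 against 4446 and 4592. It fell by 0.46 on the log2 scale (SE 0.12, adjusted p = 0.0239), but its vector arrays were far apart, and without vector replicate 2 the difference was -0.30 with an adjusted p of 0.121. It did not pass after quantile normalization (-0.26, limma adjusted p = 0.134). UCP3, its neighbour in the genome, known from muscle, read 435 and 422 against 387 and 343 and did not pass (log2 -0.23). SLC25A27 and SLC25A30, also relatives known from brain and kidney, were at 0.21 and 0.35 without a call and passed after quantile normalization at 0.42 and 0.58.

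Of 5 carriers with another function or no settled substrate, 1 fell, against 28.7% of all genes called lower. SLC25A43 read 1844 and 1890 on the vector arrays and 861 and 823 on those labelled HMGA2, a 2.22-fold fall (log2 -1.15, SE 0.11, adjusted p = 0.000548 with limma). SLC25A46, an outer membrane protein of mitochondrial shape, read 6561 and 7732 against 4649 and 6317 and did not pass (log2 -0.39), but passed without vector replicate 1 (-0.51) or HMGA2 replicate 2 (-0.61). SLC25A45 (-0.30) and SLC25A53 (-0.35) did not pass either. SLC25A48 overlapped on its brighter probe, with 576 and 812 against 437 and 998, while its dimmer probe read 143 and 150 against 521 and 588, a log2 difference of 1.92. That dimmer probe lay below both limits on the vector arrays and entered the fit of single probes through the arrays labelled HMGA2, so its value is a description. The mean of both SLC25A48 probes, 0.93, includes that dimmer probe and is likewise a description.

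SLC25A43 lies next to SLC25A5 on the X chromosome among protein-coding genes, and the brightest SLC25A5 probe was not called with it (-0.06). The dimmer SLC25A5 probe was at -2.34 and the mean of both at -1.20, so the contrast of these neighbours holds for the brightest probe alone. SLC25A14, the other member with a fall of this size on that chromosome, lies apart from them. Of 467 X-linked genes tested 31.5% were lower and 10.1% higher, against 28.6% and 15.1% of 13243 genes on other chromosomes. After quantile normalization 133 X-linked genes were lower and 105 higher, against 2988 and 3715 genes on other chromosomes.

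Among 8 members with a second probe that could be tested, the probes gave the same call for MPC1 (higher on both) and SLC25A36 (no call on either). In the other 6, 1 probe was called and 1 was not, the dim probes of SLC25A5 and SLC25A48 among those called. For SLC25A4 the second probe was dim (207 and 255 against 215 and 144) and gave -0.39 without a call. In the fit of single probes 39.2% of 23806 probes were called, 12.5% higher and 26.7% lower.

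**Figure D3:**
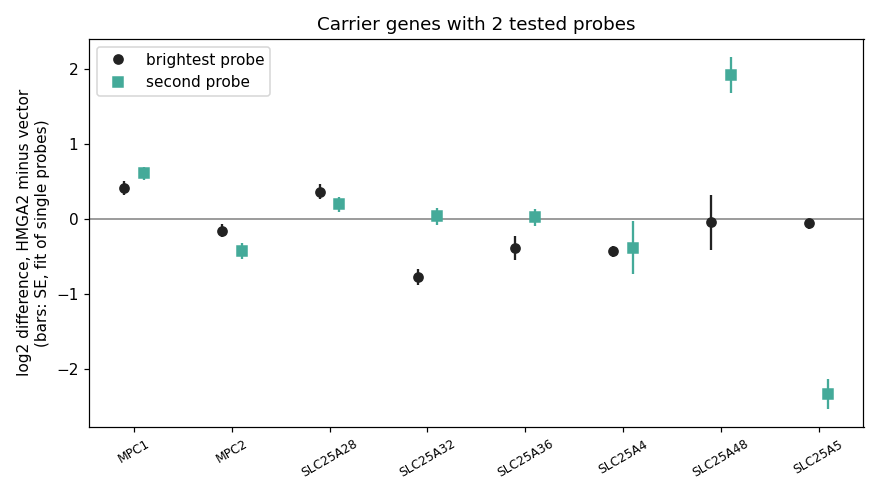
Log2 difference (arrays labelled HMGA2 minus vector arrays, bars are SE from the fit of single probes) for the brightest (circles) and second probe (squares) of the 8 carrier genes with 2 tested probes. The probes of SLC25A5 (-0.06 and -2.34) and SLC25A48 (-0.05 and 1.92) lie furthest apart, and their second probes were dim in 1 group.

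Related carriers were also compared within each array by their brightest probes, where a scale factor common to the array cancels. These 10 ratios were chosen after the values were seen, and with 2 arrays in each group an exact permutation test reaches a two-sided p of 0.333 at the lowest, so they are given as a description. The ratio of SLC25A25 to SLC25A24 was 2.98-fold higher on the arrays labelled HMGA2 (log2 1.57, SE 0.04), with 1.55 and 1.60 on the 2 arrays against the mean of the vector arrays. That of SLC25A13 to SLC25A12 was 2.19-fold higher (log2 1.13, SE 0.12), and that of the glutamate carriers SLC25A22 to SLC25A18 was 2.23-fold higher (log2 1.16, SE 0.29). SLC25A4 was lower relative to SLC25A6 and SLC25A5, with SLC25A6 over SLC25A4 at 0.65 (SE 0.06) and SLC25A5 over SLC25A4 at 0.37 (SE 0.01). The dimmer SLC25A5 probe (-2.34) fell further than SLC25A4 (-0.435). The ratio of SLC25A5 to SLC25A4 therefore holds for the brightest SLC25A5 probe alone. MPC1 over MPC2 was higher by 0.57 (SE 0.05) and SLC25A28 over SLC25A37 by 0.63 (SE 0.07). SLC25A6 over SLC25A5 changed by 0.28 and SLC25A39 over SLC25A40 by 0.36. In these 9 ratios the arrays of the groups did not overlap, and quantile normalization left each change positive, from 0.25 to 1.48. The groups also did not overlap for 71.3% of all single genes, and no such share was computed for other pairs of genes. SLC25A36 over SLC25A33 overlapped (-0.01, SE 0.34). A ratio shows unequal change of its genes and not which of them changed.

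**Figure D4:**
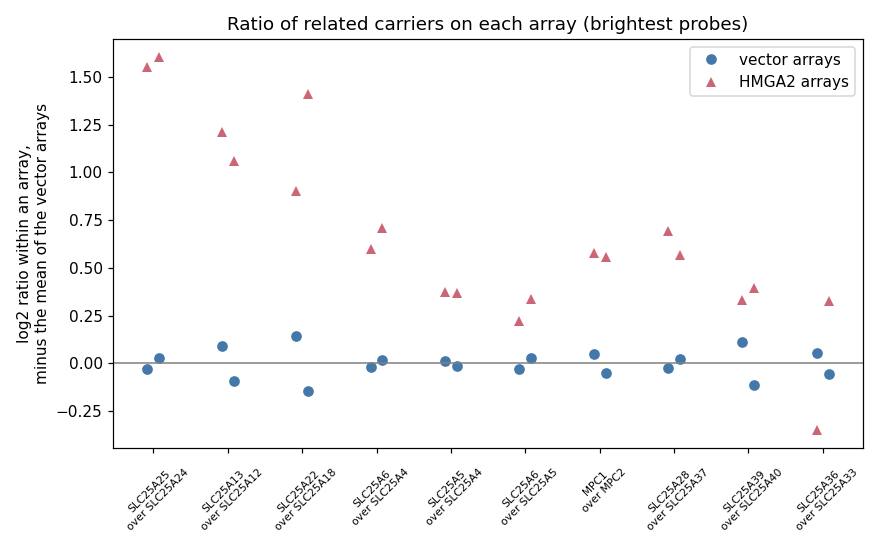
Log2 ratio of related carriers (brightest probes) within each array, minus the mean of the vector arrays, for 2 vector arrays (circles) and 2 arrays labelled HMGA2 (triangles). The triangles lie above both circles for 9 ratios, from SLC25A25 over SLC25A24 at 1.55 and 1.60 downward, and on either side of them for SLC25A36 over SLC25A33.

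In the machinery that imports carriers into the inner membrane, most genes were not called, and the calls on brightest probes were rises. Of 13 genes tested 4 rose and 0 fell, against 14.9% and 28.7% of all genes. The share called either way was 30.8%, against 43.6% of all genes, and the median was 0.06 against -0.09. After quantile normalization 6 rose and 0 fell, against 27.8% and 22.8% of all genes. TIMM22, the channel of the carrier translocase, rose by 0.55 log2 (adjusted p = 0.0131 with limma) and the small chaperone gene TIMM13 by 0.33 (adjusted p = 0.0219), though not without vector replicate 2 (adjusted p = 0.163). TOMM22, a receptor of the outer membrane, rose by 0.44 and its second probe by 0.74. TIMM8A rose by 0.49 on its brightest probe and fell by 0.81 on the next, so its direction is not settled, and it lost its call without vector replicate 2 or HMGA2 replicate 2 (limma adjusted p = 0.0649 and 0.0941). Of MTCH1 and MTCH2, outer membrane relatives of the carriers, the first was called lower (-0.31), a call lost after quantile normalization and without vector replicate 2 or HMGA2 replicate 1 (limma adjusted p = 0.0688 and 0.129), and the second higher on 1 probe (0.47) and lower on the other (-0.78).

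Enzymes fed by the carriers moved both ways. Of all genes 14.9% rose and 28.7% fell as deposited, and 27.8% and 22.8% did so after quantile normalization. Of 6 shuttle enzymes tested 2 rose and 2 fell, and 3 and 2 did so after quantile normalization. GOT1, the cytosolic aspartate aminotransferase that works with SLC25A13 in the malate-aspartate shuttle, rose by 0.77, and the matrix malate dehydrogenase MDH2 by 0.30, a call lost without vector replicate 1 or 2 (limma adjusted p = 0.0633 and 0.0586). The cytosolic malate dehydrogenase MDH1 fell by 0.63 as deposited but was not called with array medians subtracted (-0.41), and GPD2 of the glycerol phosphate shuttle fell by 1.09 on its brightest probe and gave 0.04 on the other. Of 13 enzymes of citrate and pyruvate 3 rose and 4 fell, and 4 rose and 4 fell after quantile normalization. Aconitase ACO1 rose by 1.15, the matrix isocitrate dehydrogenase IDH2 fell by 1.64 and malic enzyme ME2 fell by 1.21. DLAT, a subunit of pyruvate dehydrogenase, fell by 1.06, and its second probe fell by 1.48. PDHA1, of the same complex, was higher on its brightest probe (0.88) and lower on its other 2 probes (-0.56 and -0.34), so its direction is not settled. CS (0.58), ACLY (0.51) and IDH1 (-0.70), not called on their brightest probe, were called on their second in the fit of single probes.

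In the carnitine shuttle and fatty acid entry list 2 of 8 rose and 3 fell, while quantile values gave 5 rises and 3 falls. For this and the next 2 lists, the shares of all genes were 14.9% and 28.7% as deposited. With quantile values they were 27.8% and 22.8%. The acyl-CoA synthetase ACSL1 rose by 1.64, the carnitine acetyltransferase CRAT fell by 1.68 and CPT1C fell by 0.63, a call lost when any 1 of the 4 arrays was left out (limma adjusted p from 0.0737 to 0.253). CPT1A, the gate of fatty acid entry, fell by 0.83 on its brightest probe and gave -0.07 on the other. Of 6 glutamine, proline and urea cycle enzymes 1 rose and 2 fell, and 2 rose and 1 fell after quantile normalization. PYCR1, of proline synthesis, rose by 0.50, ASS1, which joins the citrulline exported by SLC25A15 to aspartate, fell by 0.81, and ARG2 (-0.36) lost its call after quantile normalization and without vector replicate 2 or HMGA2 replicate 2 (limma adjusted p = 0.222 and 0.0944). Of 9 genes of iron-sulfur cluster and haem synthesis 1 rose and 4 fell, while quantile values gave 3 rises and 2 falls. The scaffold ISCU fell by 0.57 and the haem enzyme CPOX by 0.49, UROD rose by 0.45, and FECH (-0.45) lost its call after quantile normalization and without vector replicate 2 (limma adjusted p = 0.0611). PPOX (-0.35) also lost its call after quantile normalization (limma adjusted p = 0.259), and ISCU and CPOX were not called with array medians subtracted. ALAS1 (0.72) and GLRX5 (-0.39) were called on their second probe alone, in the fit of single probes.

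Of 8 mitochondrial folate and one-carbon enzymes 1 rose and 2 fell, and 2 rose and 1 fell after quantile normalization. SHMT2 rose by 0.46, with its second probe at 0.37, GCSH fell by 0.63, though not without HMGA2 replicate 2 (limma adjusted p = 0.108), and AMT (-0.46) lost its call after quantile normalization. AMT was not called either with vector replicate 1 (limma adjusted p = 0.056), HMGA2 replicate 1 (0.071) or HMGA2 replicate 2 (0.0673) left out. Of 7 partners of ATP export tested 1 rose and 2 fell, with 1 of each after quantile normalization. PPIF, the cyclophilin of the permeability transition, rose by 0.66, and NME4, a nucleoside diphosphate kinase, fell by 1.31 with its second probe at -1.48. VDAC2, an outer membrane channel, was called lower as deposited (-0.35), and its second probe gave -1.29. The VDAC2 call was lost after quantile normalization and without vector replicate 1 or HMGA2 replicate 1 (limma adjusted p = 0.235 and 0.106). As deposited, the shares called in the lists of more than 2 genes ran from 30.8% to 66.7%, on either side of the 43.6% of all genes. After quantile normalization 50.6% of all genes were called. The part of a list not called then ran from 0 of 8 carnitine genes to 5 of 7 partners of ATP export.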

How the data were processed

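Cy5-labelled antisense RNA was hybridised to single-colour arrays, per the labels' protocols. The deposited intensity values are linear, and the scanner, background correction and normalization are not given in the sources used here. Array medians were 698 and 767 (vector) and 649 and 607 (HMGA2), and summed intensity ran from 185042604 to 205024463. The number of arrays limits the precision.

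Groups came from sample titles. Symbols of 1948 probes were updated through RefSeq (GRCh38.p14). Probes with several genes (977) named none. Values below 1 were set to 1, log2 was taken without further normalization, and each gene took its brightest probe. A filter on mean level at the 25th percentile kept 13752 genes. limma 3.58.1 (R 4.3.3) tested them with an intensity trend and Benjamini-Hochberg adjustment over all genes, two-sided, at a threshold of 0.05, and was first run on simulated data. All adjusted p-values are from limma. Single probes were fitted likewise over 23806 probes above the 25th percentile.

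Members and lists were chosen with earlier results of these data known. Named with full values were called members of at least 0.5 log2 without overlap, the adenine nucleotide translocases, UCP1, UCP2, UCP3, MPC1, MPC2, SLC25A12 and SLC25A13; of each list, up to 4 members with the largest called differences. Values of other members, and of list genes outside that rule such as PDHA1 and PPOX, were added after they were seen.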

Additional observations from a re-analysis of the deposited data

How the results depend on the processing

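Of the 18 calls among the carriers, 9 kept direction and call in every alternative planned that measured them: SLC25A13, SLC25A22, SLC25A25 and MPC1 higher, and SLC25A14, SLC25A15, SLC25A24, SLC25A32 and SLC25A43 lower. Against 9 higher and 9 lower, the counts were 16 and 6 after quantile normalization, alone or after normexp correction with an offset of 50, 15 and 5 with array medians subtracted, and 5 and 7 without the intensity trend. Leaving out each array gave 4 to 9 higher and 7 to 11 lower, where the lone array of a group is assumed to vary like the others. The fewest rises, 4, came without vector replicate 2, and 5 without HMGA2 replicate 2. The median of the carriers, -0.05, was 0.13 after quantile normalization and with normexp, 0.17 with medians subtracted, 0.021 with a filter at the 50th percentile, 0.021 with the mean of probes, and -0.13 to 0.008 with 1 array left out. With the mean of probes 10 carriers were higher and 13 lower. Here SLC25A5 (-1.20), MPC2 (-0.29), SLC25A40 (-0.45) and SLC25A33 (-0.38) were called lower in addition, and SLC25A48 (0.93) higher. The values of SLC25A5 and SLC25A48 include a probe that was dim in 1 group and are a description. TIMM8A was at -0.22, MTCH2 at -0.16 and MDH1 at 1.36, without a call. The MDH1 mean includes a probe that read -5 and 15 on the vector arrays and 82 and 19 on the arrays labelled HMGA2. Those readings lay below the limit for single probes, and -5 was set to 1, so the MDH1 mean is a description. SLC25A33 has 1 probe and kept its value. The cause of these changes was not tested. With the replicate number as a block 8 were higher and 8 lower. Nothing in the labels says that numbers pair arrays, and deviations of same-numbered arrays correlated at -0.20 across genes. A crossed block, added after the data were seen, gave 11 higher and 13 lower. Over all genes, array medians subtracted gave 3715 higher and 2479 lower, against 2051 and 3943 as deposited and 3829 and 3131 after quantile normalization. All genes gave 1720 higher and 3641 lower without the intensity trend and 1893 and 3928 with the mean of probes. They gave 1819 and 3510 with the replicate block and 2590 and 4619 with the crossed block. The median of all genes was -0.094 as deposited and -0.139 to -0.051 with 1 array left out. Without background readings per probe, levels near the limit for dim genes have no error beyond the spread of 2 arrays.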
